A study of Homo sapiens with 36 samples.

Results

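The 9 genes described here encode parts of the basement membrane: the heparan sulfate proteoglycans COL18A1 (collagen XVIII), HSPG2 (perlecan) and AGRN (agrin), and the laminin chains LAMA3, LAMA5, LAMB1, LAMB2, LAMB3 and LAMC1. They were named as a family, and COL18A1 was picked in part because its transcript was lower after oxaliplatin (OXPT) in these libraries. Its OXPT values are therefore a description without a test, whereas the other 8 genes were tested in every comparison. The family was named with the OXPT results of these data in view, so the OXPT p-values of the 8 come after that choice. The 9 genes are among 62757 genes in the count files, and all 9 passed the count filter together with the rest of the 12356 genes tested.

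The transcripts were measured by polyA RNA-seq in HCT-116, a human colorectal carcinoma cell line, as wild-type cells (WT) or as a line labelled FBXW7-/- (KO). Both lines were obtained from a supplier, and nothing in the sources used here says whether the KO line is 1 clone. FBXW7 is the substrate-recognition subunit of an SCF ubiquitin ligase. All cells were transfected with esiRNA (endoribonuclease-prepared siRNA) for 48 h, and the OXPT groups received 50 µM oxaliplatin, a platinum drug that crosslinks DNA, for the last 24 h. The 24 libraries used for comparisons form 8 groups of 3. The KO cells carried a control esiRNA (KO esiCT), an esiRNA against HDAC4 (KO esiHDAC4), or the control esiRNA together with #11, a degrader (PROTAC) of class IIa histone deacetylases (KO #11), each untreated (UNT) and with OXPT. For #11 one label gives 1 µM and another 10 µM. The WT UNT and WT OXPT libraries are titled as control esiRNA while their treatment entry names esiHDAC4, so the esiRNA of the WT cells is not settled, and KO against WT cannot be told apart from that difference. A further 12 WT libraries had labels that contradict each other and entered no comparison.

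Basement membranes are thin sheets of matrix under epithelia. Laminin trimers of 1 alpha, 1 beta and 1 gamma chain polymerize at the cell surface, where integrins and dystroglycan hold them. Collagen IV, nidogens, perlecan, agrin and collagen XVIII then join the network. In the gut epithelium the chain LAMA5 belongs to laminins with LAMB1 or LAMB2 and LAMC1, and LAMA3 and LAMB3 are chains of laminin-332, the ligand of hemidesmosomes and of migrating cells. Collagen XVIII carries at its C-terminus endostatin, a fragment known to inhibit the growth of vessels.

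In KO esiCT and KO esiHDAC4 cells the genes of the family whose transcripts differed most with OXPT were COL18A1, LAMA3 and LAMB3, and the sequences before their start sites are shown for that reason. Each is the run of 250 bases upstream of a RefSeq start on GRCh38.p14, written on the strand of the gene. Capitals mark each AP-1 motif (TGANTCA) and each GC box (GGGCGG, or its reverse complement), both searched on both strands. COL18A1 is on chromosome 21 with 2 RefSeq starts, and the first window (chr21:45404915-45405164, plus strand) holds 9 GC boxes and has a GC content of 88.4%.
COL18A1 start 1: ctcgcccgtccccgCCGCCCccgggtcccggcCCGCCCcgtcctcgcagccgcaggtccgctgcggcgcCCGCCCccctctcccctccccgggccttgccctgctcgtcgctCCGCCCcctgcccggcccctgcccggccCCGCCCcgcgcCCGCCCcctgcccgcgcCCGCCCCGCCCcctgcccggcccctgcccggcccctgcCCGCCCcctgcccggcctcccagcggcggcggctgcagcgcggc
The second window (chr21:45455272-45455521, plus strand) lies inside the gene, holds 1 GC box and has a GC content of 66.4%.
COL18A1 start 2: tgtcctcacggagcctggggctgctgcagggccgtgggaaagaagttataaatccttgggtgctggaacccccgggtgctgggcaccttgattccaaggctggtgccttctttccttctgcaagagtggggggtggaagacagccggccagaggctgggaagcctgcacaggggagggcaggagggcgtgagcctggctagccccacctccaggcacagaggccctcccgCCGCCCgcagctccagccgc
LAMA3 on chromosome 18 has 1 RefSeq start in the table used, inside the annotated gene, and its window (chr18:23872770-23873019, plus strand) holds 2 AP-1 motifs and 1 GC box.
LAMA3 start 1: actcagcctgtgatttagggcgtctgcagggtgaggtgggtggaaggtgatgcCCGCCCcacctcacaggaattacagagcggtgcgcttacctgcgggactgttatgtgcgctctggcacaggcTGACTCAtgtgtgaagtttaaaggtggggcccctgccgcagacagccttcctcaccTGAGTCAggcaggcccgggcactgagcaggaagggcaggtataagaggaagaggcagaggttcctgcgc
LAMB3 on chromosome 1 has 3 starts, and the window of the third (chr1:209651375-209651624, minus strand) holds 1 AP-1 motif and 1 GC box.
LAMB3 start 3: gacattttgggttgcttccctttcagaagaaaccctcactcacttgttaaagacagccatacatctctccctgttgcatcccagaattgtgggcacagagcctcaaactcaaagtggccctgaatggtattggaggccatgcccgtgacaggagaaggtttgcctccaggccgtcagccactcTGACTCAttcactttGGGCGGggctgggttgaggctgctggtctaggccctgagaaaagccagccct
Among the 35116 promoter windows of this length, 6.57% hold an AP-1 motif and 42.6% a GC box. Of the 8 members with an entry, LAMA3 and LAMB3 held an AP-1 motif and all 8 held a GC box. The other windows of LAMB3 held no AP-1 motif. A match to these letters is a description, and the counts are per gene and do not separate the starts. AGRN has no entry in the table.

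The libraries numbered 3 stood apart in 7 of 8 groups. In those groups number 3 correlated less with numbers 1 and 2 (r = 0.8127 to 0.9854 over all groups, across genes) than these did with each other (0.9507 to 0.9904), and the median share of unmapped reads was 11.12% in the libraries numbered 3 against 9.089% in the others. The values of the 9 genes that passed the test or came near it are therefore also given without these 8 libraries, as are the counts of the other lists, an alternative chosen after seeing the data. In WT UNT, number 3 had 921 CPM of LAMB3 against 72.4 and 76.8 CPM in its partners. The 24 libraries held 10725966 to 20527222 counted reads, and same-group libraries differed by more than counting noise in every pair (chi-square per degree of freedom 8.311 to 223.9 over 24 pairs). The study states in general terms that its figures rest on independent experiments, and neither the labels nor the RNA-seq methods say whether these libraries came from separate cultures, so the p-values measure the spread between these libraries.

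All 6 epithelial markers (EPCAM, CDH1, KRT8, KRT18, KRT19, CLDN7) were expressed in every group. Their summed level ran from 5250 to 11120 CPM in untreated and from 8606 to 21990 CPM in OXPT libraries, and KRT8 rose in all 4 OXPT comparisons. Of 8 fibroblast and smooth muscle markers, COL1A2, DCN, LUM and THY1 stayed under 1 CPM in every library. The summed level of the 8 ran from 28 to 58.8 CPM untreated and from 39.2 to 85.9 CPM with OXPT, and ACTA2 rose by 1.88 to 1.99 on the log2 scale. Of 5 endothelial markers all but VWF, and of 4 leukocyte markers all, stayed under 1 CPM, with sums of at most 2.87 and 0.833 CPM. Their part in the results below was not tested. In bulk RNA, fewer cells of a kind and less RNA per cell cannot be told apart.

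The FBXW7 transcript was at 15.4, 17.2 and 18.1 CPM in KO esiCT UNT and at 16.9, 23.5 and 22.8 CPM in WT UNT, a log2 difference of -0.32 (SE 0.31) that was not called (edgeR, adjusted p = 1). The study describes a short deletion in FBXW7 in the KO line, seen by Sanger sequencing. Gene-wide read counts cannot reveal such an edit, so the genotype is neither checked nor contradicted by this. The HDAC4 transcript was at 8.94, 8.80 and 14.9 CPM in KO esiHDAC4 UNT against 18.4, 14.02 and 24.9 CPM in KO esiCT UNT, a log2 difference of -0.82 (SE 0.24) (edgeR, adjusted p = 0.561). It was lower on average in the silenced cells, with the groups overlapping by 1 library. The HDAC4 transcript of the silenced cells under OXPT is not reported here. The degrader acts on protein, so its HDAC4 transcript checks nothing.

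Levels can be compared between genes only per length, here as CPM (read counts scaled by TMM to a common total per library) per kb of the longest annotated transcript. In KO esiCT UNT the order of these mean levels was COL18A1 (18 CPM per kb), LAMB2 (17.2), LAMA5 (16.8), AGRN (13.3), LAMC1 (12), LAMB3 (9.61), LAMB1 (6.2), HSPG2 (1.54) and LAMA3 (0.636). COL18A1, LAMB2 and LAMA5 overlapped with their neighbours in this order, as did AGRN, LAMC1, LAMB3 and LAMB1, whereas HSPG2 and LAMA3 each stood below the gene before them in all 3 libraries. Which transcripts of a gene were expressed was not tested, and a gene expressed mainly as a shorter transcript would have a higher level per kb. In KO esiCT OXPT, LAMB3 led with 47.6 CPM per kb, above LAMB2 (25.3), and COL18A1 was eighth with 2.58, above only HSPG2 (0.576). LAMA3 (4.12 CPM per kb) had moved next to LAMB1 (3.9), and these neighbours overlapped. The plot of CPM by group shows each library.

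COL18A1, gene ENSG00000182871.16 on chromosome 21 (45405165 to 45513720, plus strand), was lower with OXPT in each of the 4 backgrounds. In KO esiCT cells it was at 118, 95.4 and 141 CPM untreated and at 18.8, 16.9 and 15.2 CPM with OXPT, a log2 fold change of -2.80 (SE 0.27). In KO esiHDAC4 cells it was at 121, 92.9 and 122 and at 19.4, 16.4 and 33.4 CPM, a log2 fold change of -2.28 (SE 0.26). In both, every OXPT library lay below every untreated library, and number 3 of KO esiHDAC4 OXPT was the highest of the 6 OXPT libraries. In KO #11 cells the values were 116, 105 and 156 CPM untreated and 48.0, 39.8 and 39.4 CPM with OXPT, a log2 fold change of -1.57 (SE 0.26). In WT cells they were 118, 78.5 and 94.3 and 18.6, 11.7 and 17.4 CPM, a log2 fold change of -2.60 (SE 0.27). The smallest difference was that of the cells with #11, whose 3 OXPT libraries all lay above the OXPT libraries of the other 3 backgrounds. Without the libraries numbered 3 the log2 fold changes were -2.57, -2.58, -1.38 and -2.68 in the same order.

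Perlecan (HSPG2), the large proteoglycan that binds laminin, collagen IV and growth factors, fell with OXPT in KO esiHDAC4 cells, and its mean was lower in the other 3 backgrounds without passing the test. In KO esiHDAC4 it was at 45.3, 24.1 and 29.7 CPM untreated and at 15.1, 11.1 and 10.7 CPM with OXPT, a log2 fold change of -1.42 (SE 0.46) (edgeR, adjusted p = 0.0477). In KO esiCT it was at 19.5, 18.6 and 28.2 and at 11.6, 10.3 and 2.86 CPM, -1.40 (SE 0.46) on the log2 scale (edgeR, adjusted p = 0.0558). Both pairs of groups did not overlap, and number 3 of KO esiCT OXPT was far below its partners. The KO esiHDAC4 call was near the threshold and held in 7 of the 24 fits that each left out 1 library, with an adjusted p of up to 0.185. The KO esiCT value was called on reverse-strand counts (-1.03, edgeR, adjusted p = 0.0149) and by DESeq2 (-1.40, adjusted p = 0.0192). In KO #11 cells HSPG2 was at 20.6, 17.7 and 57.2 and at 21.2, 24.5 and 26.8 CPM, a log2 fold change of -0.40 (SE 0.45) (edgeR, adjusted p = 0.642). In WT it was at 29.8, 39.8 and 14.5 and at 16.9, 14.6 and 21.4 CPM, a log2 fold change of -0.67 (SE 0.45) (edgeR, adjusted p = 0.394). In both of these the groups overlapped. With the libraries numbered 3 left out, the change was called in KO esiHDAC4 (-1.40, edgeR, adjusted p = 0.00215) and in WT (-1.12, adjusted p = 0.00765), and not in KO esiCT (-0.79, adjusted p = 0.0556).

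Agrin (AGRN), the proteoglycan that clusters acetylcholine receptors at the synapse and binds laminin in epithelia, was higher with OXPT on average in all 4 backgrounds, and no difference was called with all libraries. In KO esiCT it was at 95.7, 103 and 99.6 CPM untreated and at 149.8, 214 and 84.0 CPM with OXPT, a log2 fold change of 0.59 (SE 0.26) (edgeR, adjusted p = 0.151). Only number 3 of the OXPT libraries lay below the untreated ones, and without that single library the log2 fold change was 0.87 and was called (edgeR, adjusted p = 0.0215). The log2 fold changes in the other backgrounds were 0.62 in KO esiHDAC4, where the groups did not overlap, 0.65 in KO #11 and 0.35 in WT (edgeR, adjusted p = 0.129, 0.123 and 0.439). Without all libraries numbered 3 AGRN was called in the 3 KO backgrounds, at 0.88, 0.62 and 0.98, and not in WT at 0.32 (edgeR, adjusted p = 0.245).

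LAMA3, the alpha chain of laminin-332, rose with OXPT in KO esiCT, KO esiHDAC4 and WT cells. In KO esiCT it was at 5.67, 8.19 and 6.46 CPM untreated and at 69.3, 50.5 and 11.8 CPM with OXPT, a log2 fold change of 2.698 (SE 0.61) (edgeR, adjusted p = 0.00617). In KO esiHDAC4 it was at 5.04, 4.54 and 5.85 and at 49.1, 31.8 and 18.1 CPM, a log2 fold change of 2.68 (SE 0.61) (edgeR, adjusted p = 0.00617). In both pairs the groups did not overlap, and number 3 was the lowest OXPT library. In KO #11 it was at 7.55, 4.76 and 12.1 and at 31.5, 30.1 and 26.0 CPM, again without overlap, and the log2 fold change of 1.85 (SE 0.59) was just short of a call (edgeR, adjusted p = 0.0548). With the library number as a block it was 1.74 and was called (adjusted p = 0.0431). In WT it was at 8.18, 13.95 and 7.01 and at 68.2, 60.8 and 9.36 CPM, a log2 fold change of 2.24 (SE 0.60) (edgeR, adjusted p = 0.0192). Here number 3 of the OXPT group lay within the untreated range, and the call was lost when WT OXPT number 1 or 2 or WT UNT number 1 was left out (adjusted p up to 0.0756). In fits of only the groups compared LAMA3 was not called in KO esiCT (2.67, edgeR, adjusted p = 0.0506) or WT (2.22, adjusted p = 0.249) and was called in KO #11 (1.85, adjusted p = 0.00218). LAMA3 was called in all 4 backgrounds when the libraries numbered 3 were left out, at 3.12, 3.08, 2.29 and 2.55 (edgeR, largest adjusted p = 0.000143).

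LAMB3, the beta chain of laminin-332, rose with OXPT in KO esiCT and KO esiHDAC4 cells. In KO esiCT it was at 30.5, 47.7 and 46.0 CPM untreated and at 179.6, 273 and 162 CPM with OXPT, a log2 fold change of 2.31 (SE 0.66) (edgeR, adjusted p = 0.027). In KO esiHDAC4 it was at 43.2, 45.8 and 47.0 and at 146, 217 and 302 CPM, a log2 fold change of 2.29 (SE 0.66) (edgeR, adjusted p = 0.0271). The groups did not overlap in either. These calls were lost when KO esiCT OXPT number 2 or any KO esiCT UNT library was left out (adjusted p up to 0.124), and when KO esiHDAC4 OXPT number 2 or 3 or any KO esiHDAC4 UNT library was left out (up to 0.102). In KO #11 LAMB3 was at 67.0, 47.4 and 113 and at 108, 103 and 97.2 CPM, with overlap and a log2 fold change of 0.44 (SE 0.63) (edgeR, adjusted p = 0.726). In WT it was at 72.4, 76.8 and 921 and at 233, 305 and 516 CPM, a log2 fold change of -0.02 (SE 0.63) (edgeR, adjusted p = 0.99). Untreated number 3 was the highest of the 6 WT libraries, and it decided this value: without it the log2 fold change was 2.25 (edgeR, adjusted p = 0.000615). LAMB3 was called in all 4 backgrounds when all libraries numbered 3 were left out, at 2.54, 2.03, 0.84 and 1.87.

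None of the other laminin chains of the family was called with OXPT when all libraries were used. LAMC1, the common gamma chain, was at 90.8, 113 and 82.2 CPM in KO esiCT UNT and at 175, 208 and 90.8 CPM in KO esiCT OXPT, where number 3 alone overlapped with the untreated libraries. Its log2 fold changes were 0.73, 0.64, 0.45 and 0.39 in KO esiCT, KO esiHDAC4, KO #11 and WT (edgeR, smallest adjusted p = 0.15). It was called in all 4 when the libraries numbered 3 were left out, at 0.92, 0.75, 0.63 and 0.63. LAMB2, a beta chain paired with LAMA5 in many tissues, was at 88.6, 73.0 and 132 CPM in KO esiCT UNT and at 129, 126 and 178 CPM in KO esiCT OXPT, with log2 fold changes from 0.15 in WT to 0.64 in KO esiHDAC4, and from 0.44 in KO #11 to 0.66 in KO esiCT without the libraries numbered 3, none of them called. Number 3 was the highest LAMB2 library in 7 of 8 groups and the lowest in KO #11 OXPT.

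LAMB1, the other beta chain partner of LAMA5, was at 47.8, 36.8 and 40.8 CPM in KO esiCT UNT and at 38.5, 31.6 and 8.81 CPM in KO esiCT OXPT. Its log2 fold changes were negative in all 4 backgrounds, from -0.68 in KO esiHDAC4 to -0.55 in WT, and none was called (edgeR, smallest adjusted p = 0.446). The libraries numbered 3 were the lowest of every OXPT group and of WT UNT, and without them the values lay between -0.52 and -0.26. LAMA5, the main alpha chain of adult epithelia, was at 180.5, 175 and 219 CPM in KO esiCT UNT and at 193, 265 and 154 CPM in KO esiCT OXPT. Its groups overlapped in all 4 backgrounds, and its 95% intervals were -0.44 to 0.63 in KO esiCT, -0.51 to 0.56 in KO esiHDAC4, -0.47 to 0.60 in KO #11 and -0.73 to 0.35 in WT. When the libraries numbered 3 were left out, it was called in KO #11 alone (0.62, edgeR, adjusted p = 0.0184).

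By count, 2 of the 8 tested genes were called in KO esiCT (LAMA3 and LAMB3), where 11.3% of all 12356 genes were called. In KO esiHDAC4 the count was 3 of 8 (LAMA3, LAMB3 and HSPG2) against 12% of all genes, in KO #11 it was 0 of 8 against 9.51%, and in WT it was 1 of 8 (LAMA3) against 10.7%. In KO #11, AGRN and LAMA3 had an unadjusted p under 0.05 in edgeR, and DESeq2 called LAMA3. By direction, 6.44% of all genes were called as higher and 5.54% as lower in KO esiHDAC4, 5.94 and 3.57% in KO #11, and 5.1 and 5.6% in WT. Groups that did not overlap were found for 3 of the 8 genes in KO esiCT, 6 in KO esiHDAC4, 1 in KO #11 and 0 in WT, against 30.1, 35.4, 42.5 and 21.3% of all genes. Nothing is read from these counts about the family, since it was named with the OXPT results in view. The median log2 fold change of the 8 genes was 0.57, 0.63, 0.30 and 0.07 in KO esiCT, KO esiHDAC4, KO #11 and WT, and that of all genes tested was between -0.06 and 0.02. The counts without the libraries numbered 3 were 4, 5, 5 and 4 of 8, and the shares of all genes were 17.4, 18, 22.8 and 20.9%.

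**Figure D1:**
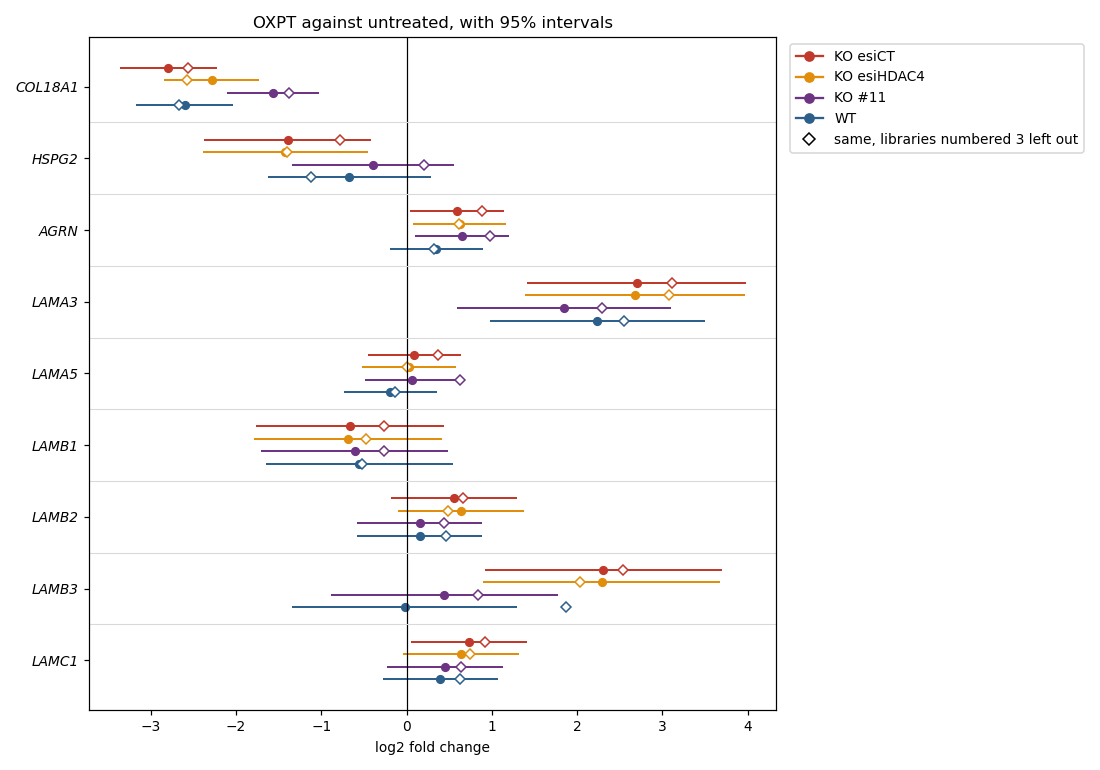
Log2 fold change of OXPT against untreated (x axis) for the 9 genes in KO esiCT, KO esiHDAC4, KO #11 and WT cells, with 95% intervals of the edgeR fit as lines and open diamonds for the same value without the libraries numbered 3. COL18A1, drawn as a description, lies between -2.80 and -1.57, LAMA3 lies between 1.85 and 2.698, and the WT point of LAMB3 at -0.02 is far from its diamond at 1.87.

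Whether the OXPT change differed between backgrounds was tested as an interaction, and none of the 8 genes besides COL18A1 was called by edgeR or DESeq2. Over all genes edgeR called 0% in each of these 3 tests, with 201 genes at an unadjusted p under 0.05 for KO against WT, 19 for esiHDAC4 and 863 for #11, where DESeq2 called 36. On simulated data the test for KO against WT called 4.08% of 2-fold and 56.7% of 4-fold changes. The lack of calls therefore does not show that the backgrounds responded alike. For KO against WT the interval was -0.52 to 0.997 for AGRN and -1.24 to 2.16 for LAMA3. For LAMA3 it was -1.79 to 1.76 for esiHDAC4 and -2.56 to 0.86 for #11. Among the 8, LAMB3 had an unadjusted p under 0.05 for KO against WT. The OXPT change of COL18A1 in KO esiCT minus that in WT was -0.19 (SE 0.36). That of LAMB3 was 2.33 (SE 0.90) with all libraries (edgeR, adjusted p = 1) and 0.67 without the libraries numbered 3. For esiHDAC4 the differences ran from -0.09 for LAMC1 to 0.51 for COL18A1. For #11 the difference was 1.23 (SE 0.36) for COL18A1 and -1.87 (SE 0.90) for LAMB3 (edgeR, adjusted p = 0.721 for LAMB3). Without the libraries numbered 3 the #11 difference was called for LAMB3 (-1.70, edgeR, adjusted p = 0.033, with 1.95% of all genes called), and that of COL18A1 was 1.19. These terms contain the OXPT contrast that COL18A1 was picked on, so its values are given without a test.

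Silencing HDAC4 gave no call for the 8 genes besides COL18A1 in untreated or OXPT-treated cells, by edgeR or DESeq2, and none had an unadjusted p under 0.05. In untreated cells edgeR called 0.00809% of all genes (1 gene). Under OXPT it called 0%, with 380 genes at an unadjusted p under 0.05 and 9 called by DESeq2. The groups of all 9 genes overlapped in both states, against 21.7% of all genes without overlap in untreated cells and 4.61% under OXPT. COL18A1 differed by -0.08 (SE 0.25) in untreated and 0.43 (SE 0.25) in OXPT-treated KO cells. Both are descriptions, since COL18A1 was picked on the contrast of OXPT with untreated libraries. The interval of the untreated difference was -0.60 to 0.44. The value under OXPT rested on number 3, and without the libraries numbered 3 it was -0.01. For LAMA3 and LAMB3 the intervals under OXPT were -1.60 to 0.77 and -1.20 to 1.43, so that differences of more than 1.5-fold in either direction lie within them.

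The degrader #11 was compared with the control esiRNA alone, first in untreated KO cells. Same-numbered libraries with and without #11 did not share deviations from their group means (r -0.25 to 0.11, across genes). A difference of preparation between these libraries therefore cannot be told apart from #11. In untreated KO cells 0.51% of all genes were called and none of the 8 besides COL18A1, by edgeR or DESeq2. LAMB2 was at 144, 136 and 224 CPM with #11 against 88.6, 73.0 and 132 CPM, without overlap, a log2 difference of 0.78 (SE 0.35) (edgeR, adjusted p = 0.325), and was the 1 gene of the 8 with an unadjusted p under 0.05. Of all genes, 31.9% had no overlap in this comparison. Without the libraries numbered 3 it was 0.80 and was called (edgeR, adjusted p = 0.0269), when 14.5% of all genes were called. COL18A1 differed by 0.09 (SE 0.25), with an interval of -0.43 to 0.60, given as a description.

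Under OXPT, COL18A1 was higher in KO cells with #11 than in KO esiCT cells. It was at 48.0, 39.8 and 39.4 CPM against 18.8, 16.9 and 15.2 CPM, without overlap, a log2 difference of 1.32 (SE 0.26). COL18A1 was picked for its low level in OXPT libraries, the KO esiCT OXPT libraries of this comparison among them, so this difference is a description without a test. It stayed between 1.21 and 1.39 in the fits that left out 1 library, and was 1.28 on reverse-strand counts and 1.25 without the libraries numbered 3. Same-numbered libraries with and without #11 did not share deviations here either (r -0.23 to 0.13), so the limit on preparation holds under OXPT too. HDAC4 itself was at 18.5, 16.9 and 14.5 CPM with #11 and at 6.28, 5.71 and 7.50 CPM without it (1.36 (SE 0.25), edgeR, adjusted p = 0.0383). Each of these KO esiCT OXPT values lay below every HDAC4 value of KO esiCT UNT given above. A transcript does not show what the degrader did to the protein.

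HSPG2 was at 21.2, 24.5 and 26.8 CPM with #11 and OXPT against 11.6, 10.3 and 2.86 CPM in KO esiCT OXPT, also without overlap, and its log2 difference of 1.53 (SE 0.47) was not called (edgeR, adjusted p = 0.235). LAMB3 was at 108, 103 and 97.2 CPM against 179.6, 273 and 162 CPM, all lower, and its difference of -0.996 (SE 0.64) was not called either (adjusted p = 0.627). Of the 8 genes besides COL18A1 none was called by edgeR or DESeq2, where 0.121% of all genes were called by edgeR (0.105% higher and 0.0162% lower), and HSPG2 alone had an unadjusted p under 0.05. Groups without overlap were found for 2 of the 8, and for 14.3% of all genes. With the libraries numbered 3 left out, HSPG2 (1.014) was called as higher with #11 and LAMA3 (-1.004), LAMB3 (-1.14) and LAMC1 (-0.84) as lower (edgeR, largest adjusted p = 0.0329), 4 of 8 against 11.5% of all genes.

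**Figure D2:**
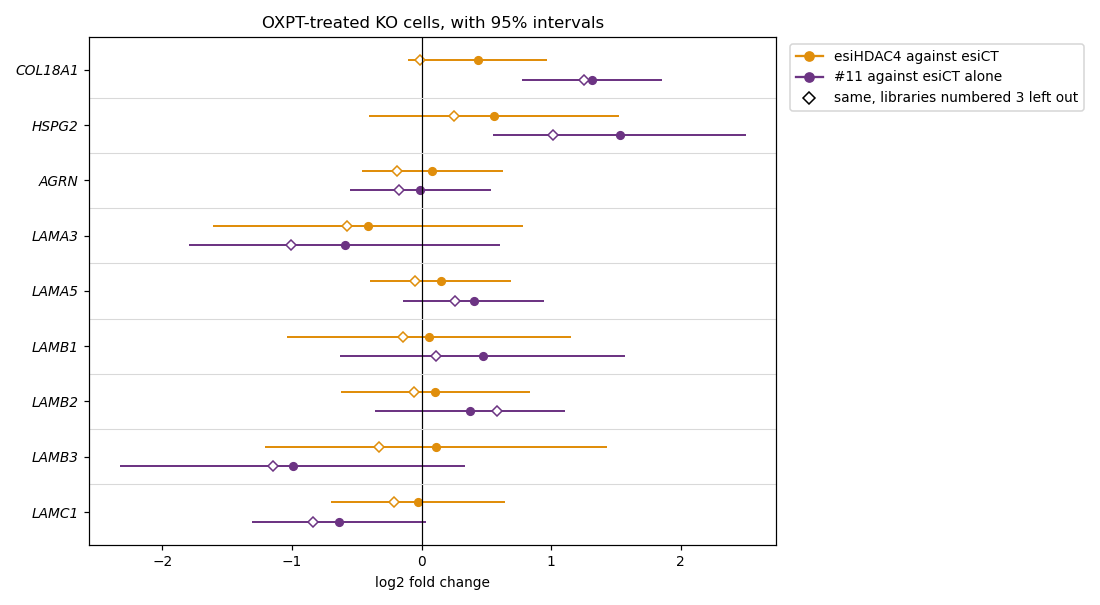
Log2 difference from KO esiCT OXPT (x axis) of KO esiHDAC4 OXPT (orange) and KO #11 OXPT (purple) for the 9 genes, with 95% intervals and open diamonds for the values without the libraries numbered 3. Both share the KO esiCT OXPT libraries, and COL18A1, drawn as a description, lies at 1.32 with #11. HSPG2 with #11 lies at 1.53 with a wider interval and was not called.

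Between untreated KO and WT cells edgeR called none of the 8 genes besides COL18A1 and 0.291% of all genes, with AGRN and LAMB3 at an unadjusted p under 0.05. DESeq2 called LAMB3. LAMB3 had the most negative difference, -3.11 (SE 0.68) (edgeR, adjusted p = 0.0595), with 30.5, 47.7 and 46.0 CPM in KO esiCT and 72.4, 76.8 and 921 CPM in WT. The groups did not overlap for AGRN and LAMB3, as for 6.4% of all genes, and the size of the LAMB3 difference rested on WT number 3: without it the difference was -0.85, and without WT number 1 or 2 it was called. With the library number as a block it was -2.702 and was called (edgeR, adjusted p = 0.0449). Under OXPT 0.138% of all genes were called and again none of the 8 genes besides COL18A1, by edgeR or DESeq2, and HSPG2 alone of the 8 had an unadjusted p under 0.05 and groups without overlap (6.39% of all genes). Without the libraries numbered 3 the HSPG2 value was -0.53. The differences ran from -1.07 for HSPG2 to 0.31 for LAMA5. COL18A1 differed by 0.29 (SE 0.25) untreated and 0.10 (SE 0.25) under OXPT, both as descriptions, with an interval of -0.23 to 0.81 for the untreated difference.

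Other genes of the pathway were read from 5 lists, whose members were taken for their known roles. Of 5 further laminin chains 3 passed the filter, and LAMC3 rose in KO esiHDAC4 (0.71 (SE 0.22), edgeR, adjusted p = 0.0416), KO #11 (0.98 (SE 0.22), adjusted p = 0.00759) and WT (0.77 (SE 0.22), adjusted p = 0.0294). Its KO esiCT value was 0.57 (SE 0.22) and not called (edgeR, adjusted p = 0.105).

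Of 27 collagen IV chains, nidogens and other basement membrane parts, 14 passed the filter. COL4A1, a chain of the collagen IV network, was at 0, 0.124 and 0 CPM in KO esiCT UNT and NID1, which links laminin to it, at 0, 0.0620 and 0 CPM, so both were near 0. Not every collagen IV chain was near 0, since COL4A5 was at 13.9, 8.87 and 16.3 CPM in the same group. In KO esiCT 2 of the 14 rose and 3 fell with OXPT, against 6.23% and 5.08% of all genes. TINAGL1, a matrix protein related to cathepsins, was at 58.8, 67.9 and 75.4 CPM untreated and at 177, 228 and 274 CPM with OXPT (1.75 (SE 0.30), edgeR, adjusted p = 0.000637). COL17A1, the hemidesmosomal collagen, rose by 2.29 (SE 0.57) on the log2 scale from 1.503, 0.310 and 2.24 CPM. COL4A3, a collagen IV chain, had a log2 fold change of -2.06 (SE 0.58) and FBLN1, a fibulin, one of -0.93 (SE 0.24). FRAS1, a protein of epithelial basement membranes, fell from 23.1, 32.8 and 15.7 to 6.82, 9.54 and 3.21 CPM (-1.85 (SE 0.52)). TINAGL1 was higher and FRAS1 lower by the test in all 4 backgrounds, COL17A1 was called in the 3 KO backgrounds, and COL4A4 was called in WT (-1.23 (SE 0.38)). The median log2 fold changes of the 14 were -0.36, -0.38, 0.11 and -0.16 in KO esiCT, KO esiHDAC4, KO #11 and WT.

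Of 18 receptors 15 passed the filter, and 2, 3, 1 and 1 rose with OXPT in KO esiCT, KO esiHDAC4, KO #11 and WT, against 6.23, 6.44, 5.94 and 5.1% of all genes. None fell, against 5.08, 5.54, 3.57 and 5.6% of all genes. SDC1 (syndecan-1), a cell surface heparan sulfate proteoglycan, was at 75.2, 89.3 and 70.1 CPM untreated and at 149, 146 and 168 CPM with OXPT in KO esiCT (0.98 (SE 0.21), edgeR, adjusted p = 0.00379), and it was called in all 4, with 1.84 in KO #11. SDC4 rose in KO esiCT (1.73) and KO esiHDAC4 (1.81), and ITGA3, the alpha subunit of the laminin-332 receptor integrin alpha 3 beta 1, in KO esiHDAC4 (0.98, edgeR, adjusted p = 0.0498).

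Of 23 genes of assembly and modification 21 passed the filter, and 1 rose in each background and 2, 1, 2 and 1 fell in the same order, against 5.1 to 6.44% of all genes called as higher and 3.57 to 5.6% as lower. SULF2, which removes 6-O-sulfate from heparan sulfate outside the cell, was at 17.8, 16.9 and 34.0 CPM untreated and at 103, 104 and 85.4 CPM with OXPT in KO esiCT (2.09 (SE 0.22)). XYLT1, which adds the first sugar of the heparan sulfate chain to the core protein, was at 8.95, 6.58 and 13.1 and at 0.785, 0.795 and 0.952 CPM (-3.50 (SE 0.42)). Both were called in all 4 backgrounds, SULF2 as higher and XYLT1 as lower. P4HB, a subunit of collagen prolyl hydroxylase, fell in KO esiCT (-1.22), and EXT1, a heparan sulfate polymerase, in KO #11 (-0.77).

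Of 18 proteases and inhibitors 12 passed the filter, and 3, 2, 1 and 2 rose with none that fell, against the same 5.1 to 6.44% and 3.57 to 5.6% of all genes. BMP1, the procollagen C-proteinase that also cleaves laminin-332, was at 68.9, 63.3 and 74.5 CPM untreated and at 106, 138 and 132 CPM with OXPT in KO esiCT (0.86 (SE 0.23), edgeR, adjusted p = 0.0178) and rose in the 3 KO backgrounds (0.86 to 0.90). TIMP1, an inhibitor of matrix metalloproteinases, rose in KO esiCT (1.24) and PLAT in WT (0.93). In the comparisons without an OXPT contrast, PLAT in untreated KO cells with #11 (1.24 (SE 0.22), edgeR, adjusted p = 0.039) was the 1 call in the 5 lists.

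The OXPT calls of the 5 lists were also made without the libraries numbered 3, apart from that of TIMP1 in KO esiCT (0.70, edgeR, adjusted p = 0.0628). In that fit 4, 3, 4 and 3 receptors rose in KO esiCT, KO esiHDAC4, KO #11 and WT, with 0, 0, 0 and 2 that fell. Of the assembly genes 1, 1, 2 and 1 rose and 4, 3, 5 and 5 fell, of the proteases and inhibitors 3, 3, 2 and 4 rose with none that fell, of the other basement membrane parts 2, 2, 3 and 2 rose and 3, 6, 4 and 5 fell, and of the further laminin chains 2, 1, 1 and 2 rose. The shares of all genes called were then 17.4, 18, 22.8 and 20.9%. The PLAT difference with #11 in untreated cells was 1.52 and was called (edgeR, adjusted p = 0.00123). It was no longer the 1 call outside the OXPT contrasts: with #11 in untreated cells 4 proteases and inhibitors, 3 assembly genes, 2 receptors and 1 other basement membrane part were called as higher and 5 assembly genes and 2 receptors as lower, when 14.5% of all genes were called. Under OXPT #11 gave 2, 3, 0 and 1 as higher in the same order of lists and 1, 1, 2 and 0 as lower, beside 1 further laminin chain as higher, against 11.5% of all genes. Silencing HDAC4 in untreated KO cells gave 1 assembly gene as higher, when 0.376% of all genes were called.

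The annotated exons of COL18A1 share 1563 bases (18.47% of them) with SLC19A1, the reduced folate carrier, which lies on the opposite strand (chr21:45493572-45573365). The reads showed no strand, so reads from the shared bases cannot be assigned to one gene, and in the unstranded count they are set aside as ambiguous. SLC19A1 was at 61.8, 75.6 and 46.5 CPM in KO esiCT UNT and at 9.61, 10.3 and 14.05 CPM in KO esiCT OXPT. Its log2 fold changes with OXPT were -2.44 (SE 0.34) in KO esiCT, -1.87 (SE 0.33) in KO esiHDAC4, -0.85 (SE 0.32) in KO #11 and -2.84 (SE 0.35) in WT, and it was called in all but KO #11 (edgeR, adjusted p = 0.108). When the libraries numbered 3 were left out, SLC19A1 was at -2.78, -2.33, -0.97 and -3.17 in the same order and was called in all 4 (edgeR, largest adjusted p = 0.00809). Between KO #11 and KO esiCT under OXPT it then differed by 1.29 (edgeR, adjusted p = 0.00607). On reverse-strand counts the COL18A1 values with OXPT were -2.72, -2.23, -1.49 and -2.65 in the same order of backgrounds. SLC19A1 was thus lower beside COL18A1, with the least negative value in the cells with #11 for both genes. The unstranded counts of both genes leave out reads from the shared bases. Reverse-strand counts assign such reads by strand, which these reads do not show, so there they can mix both genes. The part of the shared bases in the reverse-strand values was not tested. LDLRAD2 shares 11.71% of the HSPG2 exons and averaged 1.083 reads per library. ADRM1 shares 1.707% of the LAMA5 exons and DLD 1.614% of the LAMB1 exons, and neither was called in any of the 13 comparisons.

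Over the 24 libraries the 5 genes most like COL18A1 in log2 CPM were GNG7 (Pearson r = 0.974), KCNQ1 (0.973), RPS6KA2 (0.968), SLC38A10 (0.966) and OTUD7A (0.965). They were chosen by this rank among 12355 genes and lie on chromosomes 19, 11, 6, 17 and 15. Among the family HSPG2 came closest at 0.665, rank 1042, followed by LAMB1 at 0.533. AGRN (-0.614), LAMC1 (-0.612), LAMB3 (-0.664) and LAMA3 (-0.799) ran opposite to it. The libraries share the OXPT split and the library numbers, so these coefficients are descriptions.

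The GC content of the 9 genes lay between the 51.1th (LAMC1) and the 99th percentile (AGRN) of the genes tested and their span between the 25.6th (LAMB2) and the 96.4th (LAMA3), and both features moved with the OXPT change over all genes. In KO esiCT the 3088 tested genes with the widest span (74580 bases and over) held 11.2% called as lower and 3.17% as higher, and the 3088 with the shortest span 2.98% and 8.52%. By GC content of the longest transcript, the 3088 genes with the most held 9.94% called as higher and 5.67% as lower, with a median log2 fold change of 0.20, and the 3088 with the least 2.82% and 3.92%, with -0.17. COL18A1 spans 108.6 kb (83.8th percentile) and has 67.16% GC (98.7th percentile). HSPG2 spans 115.1 kb with 64.52% GC, and LAMA3, the widest of the 9 at 266.8 kb with 50.67% GC, rose. The RefSeq start of LAMA3 shown above lies inside the annotated gene, so a transcript from that start spans less. Which LAMA3 transcripts were expressed was not tested. AGRN (67.87% GC, 36 kb) and LAMA5 (66.44% GC, 59.36 kb) are close to COL18A1 in GC content and had log2 fold changes of 0.59 and 0.09. With a GC offset per library the COL18A1 values with OXPT were -2.84, -2.50, -1.94 and -2.65 in KO esiCT, KO esiHDAC4, KO #11 and WT. The part of span and GC content in the members' values was not tested otherwise.

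**Figure D3:**
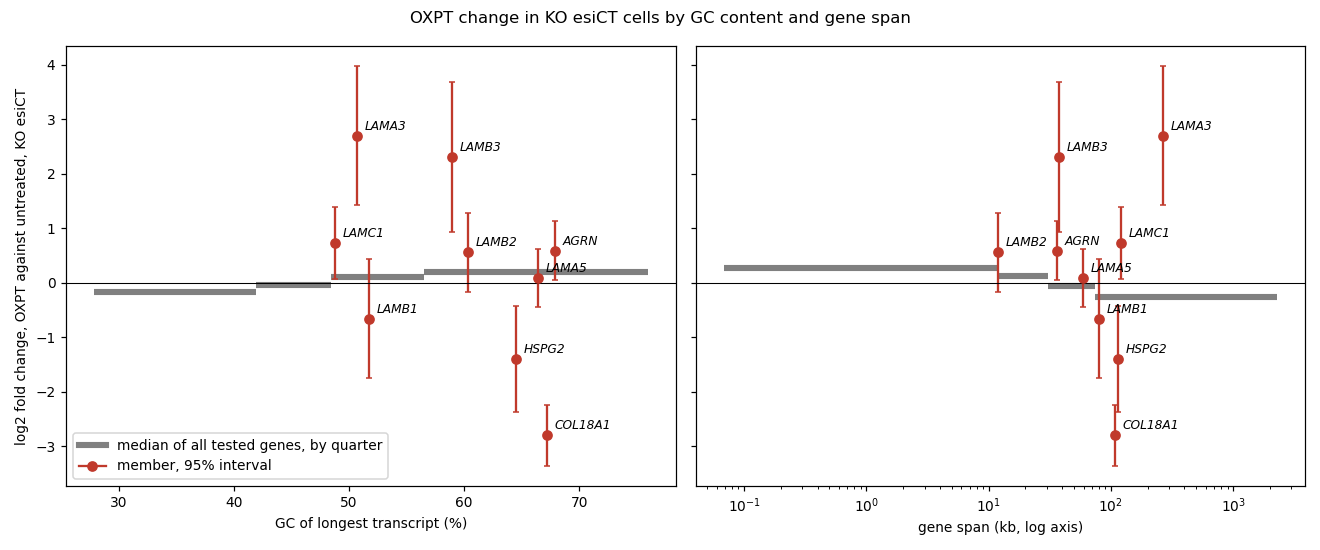
Log2 fold change of OXPT against untreated in KO esiCT cells (y axis) against GC content of the longest transcript (left, %) and gene span (right, kb, log axis), with the 9 genes as points with 95% intervals and the median of all tested genes in each of 4 bins of near equal size as grey bars. The grey bars stay between -0.25 and 0.28, whereas COL18A1 lies at -2.80 and LAMA3 at 2.698.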

How the data were processed

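RNA-seq counts per gene were read as deposited by the authors, 1 file per library with unstranded, forward and reverse columns of raw counts in the layout that STAR writes. The submitters' processing notes name Trimmomatic 0.39, STAR 2.7.11a and hg38, while the paper's methods describe salmon and DESeq2, another route. The labels name a stranded kit, but the reverse totals were 1 to 1.02 times the forward totals and 35.7 to 43.7% of reads had no feature on the reverse column. The unstranded column was therefore used, and the reverse column as an alternative. Reads matching overlapping genes (10.6 to 12.2%) and other rows that name no gene were left out of library sizes. Symbols came from GENCODE on GRCh38 for 62639 of 62757 identifiers.

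Of 36 libraries, the 24 in 8 groups of 3 with usable labels were analysed, with 10725966 to 20527222 reads in genes. Genes with a mean count of at least 64 in 1 or more groups (12356) were fitted in edgeR 4.0.16 (R 4.3.3, limma 3.58.1) with TMM scaling and the quasi-likelihood F test, 1 coefficient per group over all 24 libraries, two-sided. A call required a fold change above 1.5 together with an adjusted p below 0.05 (Benjamini-Hochberg, across the 12356 genes). Counts are raw reads without molecular identifiers. CPM are TMM-scaled and the log2 CPM of the likeness ranks used a prior count of 2. DESeq2 1.42.0, RLE scaling, other filters, a GC offset, a replicate block, fits of only the groups compared and fits without each library were the alternatives. Those without all libraries numbered 3, and with both the block and only the groups compared, were chosen after seeing the data. Fits were tested on simulated data. Figures were drawn with Python 3.11.15 (pandas 2.3.3, matplotlib 3.10.9).

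Replicate numbers came from the titles and were taken to pair libraries where every same-numbered pair had correlated deviations (r over 0.1). This held in 10 of 13 comparisons (r 0.11 to 0.79) and not for #11 in untreated cells, under OXPT or in its interaction.

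The 9 genes and the lists of other genes were chosen with earlier results of these data known. The text names the 9 genes, HDAC4 and FBXW7, filtered genes that overlap a member, the 5 genes most like COL18A1, up to 3 called genes of each list with the largest OXPT change and every list gene called elsewhere. FBLN1, LDLRAD2, COL4A1, COL4A5 and NID1 were added after their values were seen. Some genes that the rule names are not reported here.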

Additional observations from a re-analysis of the deposited data

How the results depend on the processing

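Over the 117 values of the 9 genes (9 genes in 13 comparisons) and 35 alternatives, 3987 of 4095 stayed the same, 54 lost a call, 50 gained one, 2 moved and 2 reversed. The same meant the same side of the threshold and, where called, the same direction (194 that were not called in either fit changed sign). For COL18A1 in OXPT against untreated cells it meant the same sign and a shift below the pooled SD of log2 CPM within groups. Other COL18A1 values were scored by the threshold, although those under OXPT and in interactions are descriptions. The 54 thus hold lost calls of COL18A1 for #11 under OXPT, so these counts do not cover tested genes alone. The 2 reversals were both of LAMB3 in WT with OXPT, at 2.25 without WT UNT replicate 3 and 1.87 without all libraries numbered 3, with a range from -0.50 to 2.25 over the fits that left out 1 library, and the 2 that moved were the #11 value of COL18A1 with OXPT with a GC offset, at -1.94 and, with the block, -1.95. Counts of members are given below with COL18A1 left out of the comparisons of OXPT with untreated cells. The counts for #11 under OXPT hold COL18A1, whose difference there is a description, as 1 of the 3 without a filter, 1 of the 5 without the libraries numbered 3 and the 1 with all libraries. The count in KO esiCT with OXPT was 1 in a fit of only the groups compared. In KO #11 with OXPT it was 1 without a filter, with the replicate block, with the block and a GC offset, with the block and only the groups compared, and with DESeq2, and 2 with only the groups compared. In WT with OXPT it was 2 on reverse-strand counts and 0 with only the groups compared, with or without the block. For #11 in untreated cells it was 1 (LAMB2) with the block and a GC offset. For #11 under OXPT it was 3 (COL18A1, HSPG2 and LAMB3) without a filter and 0 with a mean count of 64 required in every group and with only the groups compared, with or without the block. For untreated KO against WT it was 1 (LAMB3) without a filter, with the block, with a GC offset, with both and with DESeq2. Without a filter the interactions of genotype and of #11 with OXPT each held 1 (LAMB3). Without the libraries numbered 3 the counts were 4, 5, 5 and 4 with OXPT (KO esiCT, KO esiHDAC4, KO #11 and WT), 1 for #11 untreated, 5 for #11 under OXPT and 1 for its interaction. Leaving out 1 library gave 1 to 3, 1 to 3, 0 to 1 and 0 to 2 with OXPT, 0 to 1 for #11 under OXPT and for untreated KO against WT, and 0 for the rest. The cause of these moves was not tested, beyond the fewer libraries in the fits of only the groups compared and in those that leave libraries out.

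Where the numbers paired the libraries, the replicate block turned 2 values of the 9 genes into calls, LAMA3 in KO #11 with OXPT (1.74, edgeR, adjusted p = 0.0431) and LAMB3 in untreated KO against WT (-2.702, adjusted p = 0.0449), and it changed no other call of theirs. For #11 without pairing (r -0.25 to 0.13) the block moved the calls among all genes from 63 to 397 untreated and from 15 to 132 under OXPT.

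The calls among all genes moved as well. With OXPT they were 1398 in KO esiCT (553 with only the groups compared to 2287 with the block and a GC offset), 1480 in KO esiHDAC4 (943 with a mean count of 64 in every group to 2243 with the block and only the groups compared), 1175 in KO #11 (786 to 3011 in the same order) and 1322 in WT (84 with only the groups compared to 2132 with the block and a GC offset). They ran from 50 to 790 for #11 untreated (63 in the reported fit), 0 to 367 for #11 under OXPT (15), 1 to 322 for untreated KO against WT (36), 0 to 91 under OXPT (17) and 0 to 560 for esiHDAC4 in untreated cells (1). For esiHDAC4 under OXPT they reached 9, for the interaction of genotype 24 and for that of #11 65, from 0 each.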

Other observations

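The 12 WT libraries whose labels contradict each other are given as values by title, with no group assigned. COL18A1 was at 137, 108 and 165 CPM in the libraries titled WT PROTAC11, at 52.4, 28.5 and 59.2 CPM in those titled WT PROTAC11 OXPT, at 117, 65.8 and 115 CPM in those titled WT siHDAC4 UNT and at 25.9, 12.8 and 23.2 CPM in those titled WT siHDAC4 OXPT. LAMB3 was at 616, 481 and 847 CPM, at 696, 380 and 706 CPM, at 74.4, 110 and 786 CPM and at 188, 317 and 454 CPM in the same order of titles. LAMA3 was at 6.86, 13.5 and 9.74 CPM, at 7.16, 24.3 and 17.0 CPM, at 8.49, 10.7 and 3.35 CPM and at 50.3, 50.7 and 11.3 CPM in that order. Over the 12 libraries the lowest, median and highest values were 12.5, 34.9 and 42.7 CPM for HSPG2, 118, 172 and 218 CPM for AGRN, 137, 190 and 228 CPM for LAMA5, 6.79, 19.9 and 50.6 CPM for LAMB1, 89.4, 188 and 332 CPM for LAMB2 and 58.9, 95.3 and 198 CPM for LAMC1. The number 3 library titled WT siHDAC4 UNT lay far above its partners in LAMB3, as number 3 of WT UNT did.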
